A study of Homo sapiens with 15 samples.

Results

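The genes examined were MYLIP, LIPA, NPC2, NPC1, STARD3 and STARD4, which act on low-density lipoprotein (LDL) uptake and on the exit of cholesterol from the lysosome. They were taken as the rows carrying these 6 gene names among 60107 gene identifiers. All 6 had a row, 5 had reads and passed the filter on low counts, and these 5 were among 10495 genes tested. The cells were MIA PaCa-2, a human pancreatic carcinoma line grown as 1 line in culture, so that every group shares its genotype. There were 5 groups of 3 libraries: vehicle (Ctrl), Lys05, BAQ12, BAQ13 and BAQ12O. Each compound was given at 5 µM for 24 h. Lys05 is a dimeric aminoquinoline that inhibits autophagy at the lysosome. According to the study, BAQ12 and BAQ13 join the Lys05 scaffold to a detergent that accumulates in lysosomes, and both assemble into nanoparticles. The BAQ12O label is that of the samples (12O in the series' design text), and its structure is not given here. The comparisons with Ctrl ask how lysosome-directed compounds alter transcript levels, and those between compounds ask whether the agents differ.

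LDL particles enter cells through lipoprotein receptors and are delivered to lysosomes. There, lysosomal acid lipase, the product of LIPA, splits their cholesteryl esters. NPC2, a small soluble protein of the lysosomal lumen, binds the freed cholesterol and hands it to NPC1, a membrane protein through which it leaves. STARD3 sits on late endosomes, touches the endoplasmic reticulum and moves sterol between the membranes, whereas STARD4 is a soluble carrier of sterol in the cytosol. MYLIP, also called IDOL, is a ubiquitin ligase that marks lipoprotein receptors for degradation. Its gene is known as a target of the liver X receptors, which sense oxysterols, while sterol shortage activates SREBP2 and with it the genes of cholesterol synthesis.

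The 250 bases before the start site are shown for the genes whose transcripts differed from Ctrl with BAQ13, NPC2 and MYLIP, and for NPC1, the partner of NPC2. They are RefSeq sequences of GRCh38.p14, written 5′ to 3′ on the strand of the gene, and the capitals mark GC boxes, GGGCGG on either strand, of which neighbouring ones may share bases. The first NPC2 start has chr14:74493513-74493762 before it on the minus strand, NPC1 chr18:23586507-23586756 on the minus strand, and MYLIP chr6:16128836-16129085 on the plus strand.
NPC2: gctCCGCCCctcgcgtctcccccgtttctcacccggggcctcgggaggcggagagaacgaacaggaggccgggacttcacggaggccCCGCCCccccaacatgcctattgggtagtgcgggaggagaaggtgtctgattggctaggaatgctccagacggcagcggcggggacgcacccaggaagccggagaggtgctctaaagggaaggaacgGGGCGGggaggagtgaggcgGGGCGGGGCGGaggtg
NPC1: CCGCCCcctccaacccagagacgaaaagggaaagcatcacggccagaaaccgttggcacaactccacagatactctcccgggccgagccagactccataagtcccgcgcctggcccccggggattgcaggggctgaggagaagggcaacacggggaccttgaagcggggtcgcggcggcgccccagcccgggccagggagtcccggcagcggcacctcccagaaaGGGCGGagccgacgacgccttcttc
MYLIP: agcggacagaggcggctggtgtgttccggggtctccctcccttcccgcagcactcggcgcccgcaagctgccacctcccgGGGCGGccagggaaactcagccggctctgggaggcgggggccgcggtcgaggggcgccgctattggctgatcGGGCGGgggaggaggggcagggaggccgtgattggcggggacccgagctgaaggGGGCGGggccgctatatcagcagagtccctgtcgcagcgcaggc
GC boxes numbered 5 before this NPC2 start, 2 before NPC1 and 3 before MYLIP. Before the second NPC2 start, not shown, there were 9. At least 1 stood in 42.6% of 35116 RefSeq promoter windows of this length. The E-box (CACGTG), the core of the motif that lysosomal regulators bind, and the TATA box (TATAAA) stood in none of the 9 windows of the 6 genes on either strand, and were found in 6.34% and 10.7% of all windows. Their absence says only that these letters are not in these windows.

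Per library, 1586566 to 2500551 reads fell on genes, and values are normalised read counts, the reads of a gene divided by a size factor of its library. A count of 3 reads, taken as the limit that a count of 0 allows, equalled 2.49 to 4.14 normalised reads, which covers counting error only. The third BAQ12 library stood apart. Its mean correlation was 0.934 with its own group and 0.940 with the other groups, against at least 0.956 and 0.961 for the other 14 libraries. Results whose call changes without it are given both ways. The first BAQ13 library deviated from its group mean in a similar way, with a correlation of 0.573 between its deviations and those of the third BAQ12 library. In both of these libraries NPC2 was the highest of its group, and NPC1 and LIPA were the lowest. The cause was not tested. Without the first BAQ13 library, NPC2 and MYLIP kept their calls with BAQ13 against Ctrl. Of the markers of the labelled epithelial cells, KRT8, KRT18 and KRT19 were read in every library, with lowest values of 175, 634 and 429 normalised reads, whereas EPCAM, CDH1 and KRT7 had at most 5 reads in any library. Of the markers of a mesenchymal state, VIM lay between 9198 and 10781 normalised reads and ZEB1 between 107 and 185, whereas CDH2 had a read in only 1 library. Defining markers of acinar, endocrine, leukocyte and endothelial cells had at most 6 reads in a library, and the fibroblast marker DCN had none while COL1A2 lay between 148 and 252 normalised reads. Nothing says that the libraries came from separate cultures, so the p-values measure the spread between these libraries, which may be technical. In bulk RNA, fewer expressing cells and less RNA per cell cannot be told apart.

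NPC2 was higher with BAQ13 and with BAQ12 than with Ctrl, and MYLIP was lower with BAQ13. NPC1 did not pass the test with BAQ13 when all 15 libraries were fitted, but passed it when the third BAQ12 library was left out (adjusted p = 0.0055, limma), when only the 6 libraries compared were fitted (adjusted p = 0.0136) and with library weights (adjusted p = 0.00029). LIPA and STARD3 passed the test in no comparison, and STARD4 had no reads. With adjustment over the 10495 genes (limma, Benjamini-Hochberg, threshold 0.05), 2 of the 5 genes tested were called with BAQ13, where 5.77% of all genes were called. With BAQ12, 1 of 5 was called, against 0.981% of all genes. With Lys05 and with BAQ12O, 0 of 5 were called, against 0.238% and 1.48%. edgeR and DESeq2 on the recovered reads also called 0 with these compounds, and 1 gene, NPC2, had an unadjusted p under 0.05 in limma with each of them. Without the third BAQ12 library, 3 of 5 were called with BAQ13, 1 of 5 with BAQ12 and 1 of 5 with BAQ12O, against 13.7%, 1.31% and 4.99% of all genes. All 4 comparisons share the Ctrl libraries.

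**Figure D1:**
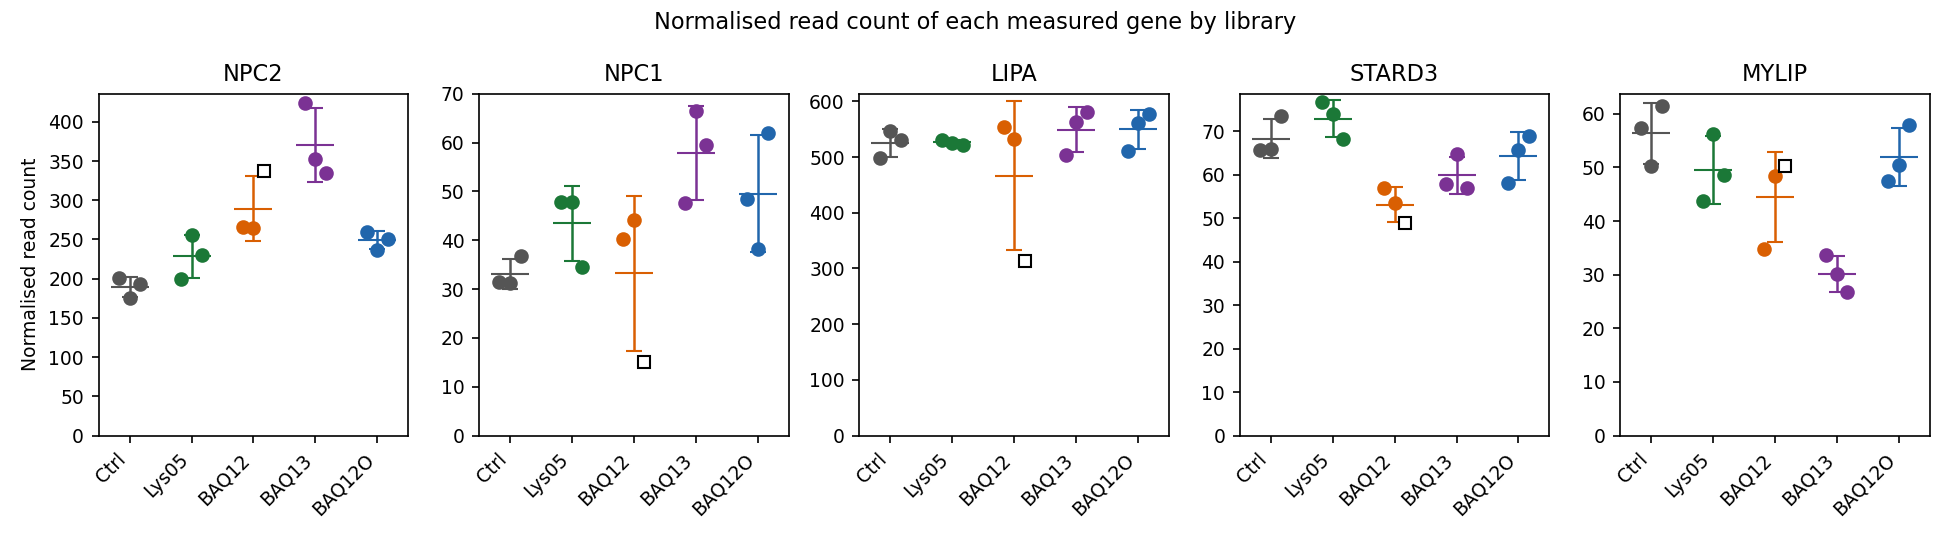
Normalised read count (y axis, linear, starting at 0, with its own scale for each gene) of the 5 genes with reads, by group. Points are libraries, bars are means ± SD (n = 3), and the open square is the third BAQ12 library. The 3 BAQ13 libraries lie above all Ctrl libraries for NPC2 and NPC1 and below them for MYLIP, and the open square lies far below the other points for NPC1 and LIPA. BAQ13 libraries lay wholly above Ctrl for 14.5% of all genes and wholly below for 14.4%.

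LIPA, which acts first on incoming cholesteryl esters, is annotated on the minus strand at chr10:89213569-89414557 (GRCh38, ENSG00000107798). Its 3 Ctrl libraries read 499, 547 and 530 normalised counts, a mean of 525 ± 24.4 (SD, n = 3). With Lys05 the values were 531, 526 and 522. With BAQ13 they were 504, 563 and 580, and with BAQ12O 511, 562 and 578. All these groups overlapped with one another. The BAQ12 libraries read 554, 532 and 313, so that the third alone lay below every other library. The log2 difference from Ctrl (on log2(normalised count + 1), as are all that follow) was 0.06 with BAQ13, with a 95% interval of -0.25 to 0.38. With BAQ12 it was -0.22 (interval -0.53 to 0.10), and without the third library it was 0.05 (interval -0.12 to 0.22).

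The annotated span of LIPA covers several genes of the opposite strand. The antisense RNA gene AL353751.1 lies within it at chr10:89283765-89292125 and read 352 ± 34.8 normalised counts in Ctrl (SD, n = 3) and 445 ± 17.3 with BAQ13. That is a log2 difference of 0.34 (adjusted p = 0.0361, limma), while LIPA showed 0.06. The interferon-induced genes IFIT1, IFIT2 and IFIT3 lie in the same span with at most 69 reads in a library. Overlap was judged from whole gene spans and not from exons. Whether reads were counted by strand is not stated, so reads of LIPA and of these genes may not be separable where their exons overlap.

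NPC2, the lumenal cholesterol carrier, lies on the minus strand at chr14:74476192-74494177 (ENSG00000119655). Its Ctrl libraries read 201, 175 and 193 normalised counts (190 ± 13.1, SD, n = 3). The BAQ13 libraries read 424, 353 and 334 (370 ± 47.1). All 3 stood above every Ctrl library. The log2 difference from Ctrl was 0.96 with a standard error of 0.12, a 1.94-fold higher level (adjusted p = 5.6e-05, limma). With BAQ12 the values were 266, 264 and 338 (289 ± 42.0), and none overlapped with Ctrl. Libraries wholly above Ctrl were found for 14.5% of all genes with BAQ13 and 7.75% with BAQ12. The log2 difference of BAQ12 was 0.60 with a standard error of 0.12 (adjusted p = 0.0186, limma), and 0.48 without the third library (adjusted p = 0.0175). This call was lost without the second Ctrl library (adjusted p = 0.141), without the third Ctrl library (adjusted p = 0.0799) and when only these 6 libraries entered the limma fit (adjusted p = 0.265).

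The BAQ12O libraries read 260, 236 and 251 NPC2 counts (249 ± 11.8), all above the highest Ctrl library. The log2 difference of 0.39 did not pass the test (adjusted p = 0.135, limma), but passed it without the third BAQ12 library (adjusted p = 0.0178). Libraries that did not overlap with Ctrl and lay above it with BAQ12O were found for 12.5% of all genes. The Lys05 libraries read 200, 255 and 231, of which the lowest fell inside the Ctrl range. The log2 difference with Lys05 was 0.26 (interval 0.01 to 0.52, adjusted p = 0.988, limma). ISCA2, an iron-sulphur cluster assembly gene on the opposite strand that overlaps with the start of NPC2, had at most 60 reads in a library and a log2 difference of -0.13 with BAQ13 (adjusted p = 0.749).

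NPC1, the membrane partner of NPC2, lies on the minus strand at chr18:23506184-23586898 (ENSG00000141458). It was covered thinly, with 12 to 73 reads per library. Its Ctrl libraries read 31.5, 31.3 and 36.7 normalised counts (33.2 ± 3.07, SD, n = 3). The BAQ13 libraries read 47.6, 66.5 and 59.5 (57.9 ± 9.58), and all lay above the highest Ctrl library, as for 14.5% of all genes with BAQ13. The log2 difference was 0.78 with a standard error of 0.30 and did not pass the test (adjusted p = 0.153, limma). Without the third BAQ12 library the difference was the same, the standard error fell to 0.19 and the adjusted p was 0.0055.

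BAQ12O values for NPC1 were 48.5, 38.1 and 62.0, again above all Ctrl libraries, as for 12.5% of all genes with BAQ12O. The log2 difference was 0.54 (adjusted p = 0.476, and 0.0972 without the third BAQ12 library, limma). The Lys05 values were 47.9, 47.9 and 34.5, of which the lowest lay within the Ctrl range. Their log2 difference was 0.37 (interval -0.27 to 1.00). The BAQ12 libraries read 40.4, 44.2 and 15.1, and the last, from the library that stood apart, rested on 12 reads. The log2 difference of BAQ12 was -0.13 with it and 0.34 without it, and neither passed the test. RMC1, on the opposite strand over the 3′ end of NPC1, had at most 24 reads in a library.

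**Figure D2:**
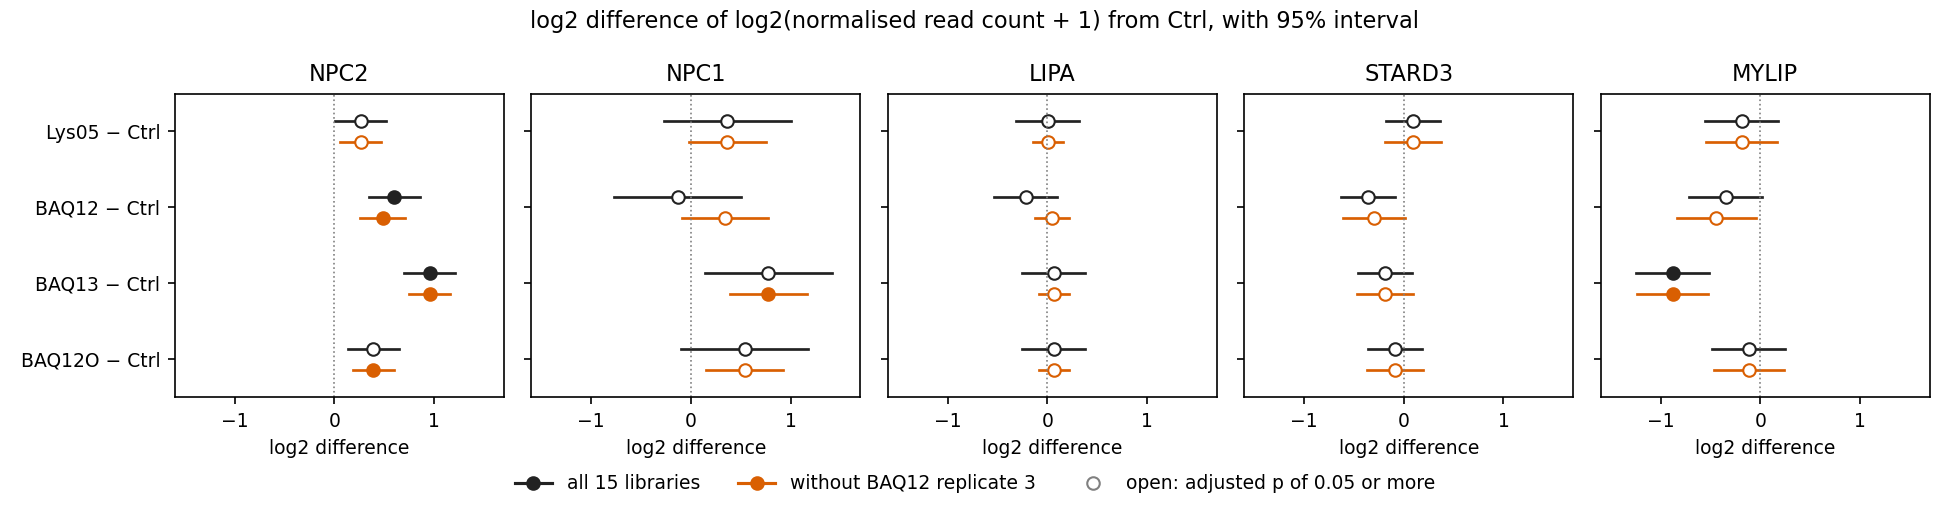
log2 difference from Ctrl (x axis, on log2(normalised read count + 1)) with its 95% interval, for 5 genes and 4 compounds. Dark symbols use all 15 libraries and orange symbols leave out the third BAQ12 library, with filled symbols for an adjusted p under 0.05. NPC2 lies to the right of 0 with every compound, MYLIP with BAQ13 lies at -0.88, and the NPC1 intervals narrow without that library.

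STARD3, the late endosomal sterol transfer protein, lies on the plus strand at chr17:39637065-39663484 (ENSG00000131748). Its Ctrl libraries read 65.6, 65.9 and 73.4 normalised counts (68.3 ± 4.45, SD, n = 3). The BAQ12 libraries read 56.9, 53.6 and 49.0 (53.1 ± 3.95), all below the lowest Ctrl library. BAQ12 libraries lay wholly below Ctrl for 7.61% of all genes. The log2 difference of -0.36 (interval -0.63 to -0.08) did not pass the test (adjusted p = 0.283, limma), nor did that of -0.30 without the third BAQ12 library (interval -0.61 to 0.0096, adjusted p = 0.564). With BAQ13 the values were 57.9, 64.7 and 57.0, with a log2 difference of -0.19 (adjusted p = 0.470). The Lys05 values of 76.7, 73.9 and 68.1 and the BAQ12O values of 58.2, 65.8 and 68.9 overlapped with Ctrl. STARD4, the cytosolic carrier at chr5:111496033-111512590 (ENSG00000164211), was listed at 0 in all 15 libraries, as was its antisense gene STARD4-AS1. It allows no fold change, and its count was below the limit of 3 reads in each library. STARD4 and STARD4-AS1 overlap, and counting by strand is not stated, so these counts of 0 need not mean that the transcript was absent.

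MYLIP, the ligase that lowers lipoprotein receptors, lies on the plus strand at chr6:16129125-16148248 (ENSG00000007944). Its Ctrl libraries read 57.3, 50.2 and 61.5 normalised counts (56.3 ± 5.69, SD, n = 3). The BAQ13 libraries read 33.6, 30.1 and 26.8 (30.2 ± 3.39), all below the lowest Ctrl library. BAQ13 libraries lay wholly below Ctrl for 14.4% of all genes. The log2 difference was -0.88 with a standard error of 0.17, or 0.543 of the Ctrl level (adjusted p = 0.0046, limma), from 32 to 69 reads per library. With BAQ12 the values were 34.9, 48.5 and 50.2, the highest of which all but equalled the lowest Ctrl library. The log2 difference of BAQ12 was -0.35 (interval -0.71 to 0.02, adjusted p = 0.442), and -0.44 without the third library (interval -0.84 to -0.05, adjusted p = 0.450). The Lys05 libraries, at 43.7, 56.2 and 48.5, and the BAQ12O libraries, at 47.4, 50.5 and 57.9, overlapped with Ctrl. Their log2 differences were -0.19 (interval -0.55 to 0.18) and -0.11 (interval -0.48 to 0.25).

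In the order of mean levels, NPC2 ran from BAQ13 through BAQ12, BAQ12O and Lys05 to Ctrl, and MYLIP from Ctrl through BAQ12O, Lys05 and BAQ12 to BAQ13. For NPC1 the order was BAQ13, BAQ12O, Lys05, BAQ12 and Ctrl, the last pair with means of 33.2 each. For LIPA it was BAQ12O, BAQ13, Lys05, Ctrl and BAQ12, and for STARD3 Lys05, Ctrl, BAQ12O, BAQ13 and BAQ12. No pair of neighbours in any of these orders passed the test with all 15 libraries. Without the third BAQ12 library, BAQ13 and BAQ12 differed for NPC2.

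The 4 compounds, given at the same dose and time, were compared in 6 pairs. BAQ13 differed from Lys05 for 2 of 5 genes, where 2.66% of all genes were called. NPC2 was 1.62-fold higher with BAQ13 than with Lys05, a log2 difference of 0.69 with a standard error of 0.12 (adjusted p = 0.0028, limma). No libraries overlapped, as for 12.3% of all genes that were wholly higher with BAQ13. MYLIP was lower with BAQ13 than with Lys05, by a log2 difference of -0.69 with a standard error of 0.17 (adjusted p = 0.0402, limma). This MYLIP call is near the threshold. It was lost with DESeq2 on the recovered reads (adjusted p = 0.0821), with no filter on low counts (adjusted p = 0.0685) and in 11 of 15 fits that left out 1 library, namely without any 1 Ctrl, Lys05 or BAQ13 library or without the first or second BAQ12O library (adjusted p from 0.0512 to 0.198 in these).

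BAQ12O and BAQ13 also differed for 2 of 5 genes, against 1.39% of all genes. NPC2 was lower with BAQ12O than with BAQ13, by a log2 difference of -0.56 with a standard error of 0.12 (adjusted p = 0.0238, limma). MYLIP was higher with BAQ12O, with a log2 difference of 0.77 and a standard error of 0.17 (adjusted p = 0.0341, limma), and this call was lost with DESeq2 (adjusted p = 0.0808), with no filter on low counts (0.0559) and with only the 6 libraries compared (0.0507). Both calls were lost without the second BAQ13 library (adjusted p = 0.0771 for NPC2 and 0.128 for MYLIP) and without any 1 BAQ12O library, where adjusted p ran from 0.0676 to 0.179. The NPC2 call was also lost without the first BAQ13 library (adjusted p = 0.124). The MYLIP call was also lost without the third BAQ13 library (adjusted p = 0.153), the first Ctrl library (0.0540) or the third Lys05 library (0.0514).

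BAQ13 and BAQ12, which the study describes as members of 1 compound series, differed for 0 of 5 genes with all libraries, against 0.562% of all genes called by limma. edgeR and DESeq2 called 0 as well, and NPC2, MYLIP and NPC1 had unadjusted p-values under 0.05 in limma. The log2 difference of BAQ13 from BAQ12 was 0.36 for NPC2 (interval 0.10 to 0.61, adjusted p = 0.348, limma). Without the third BAQ12 library it was 0.47 (interval 0.25 to 0.70, adjusted p = 0.0157), and 3.16% of all genes were called. For MYLIP it was -0.53 (interval -0.90 to -0.17, adjusted p = 0.294), and -0.44 without that library (interval -0.84 to -0.04). For NPC1 it was 0.91 (interval 0.27 to 1.54), and 0.43 without that library (interval -0.000546 to 0.87). None of the 5 genes was called by limma, edgeR or DESeq2 between BAQ12 and Lys05, BAQ12O and Lys05, or BAQ12O and BAQ12, where limma called 0.162%, 0.248% and 0.229% of all genes. Unadjusted limma p-values were under 0.05 for 2, 0 and 1 of the 5 genes in these pairs. Between BAQ12O and BAQ12 the interval for NPC2 was -0.46 to 0.05, and between BAQ12 and Lys05 it was 0.08 to 0.59 around a difference of 0.34. Without the third BAQ12 library, BAQ12 and Lys05 differed by 0.22 (interval -0.0072 to 0.45), and neither difference passed the test. LIPA differed by at most 0.28 on the log2 scale between any of the compounds, and by at most 0.06 in size between them without the third BAQ12 library. For STARD3 the largest difference between compounds was that of BAQ12 from Lys05, -0.45 (interval -0.72 to -0.18, adjusted p = 0.316, limma), with no overlap of libraries, which held for 5.47% of all genes.

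**Figure D3:**
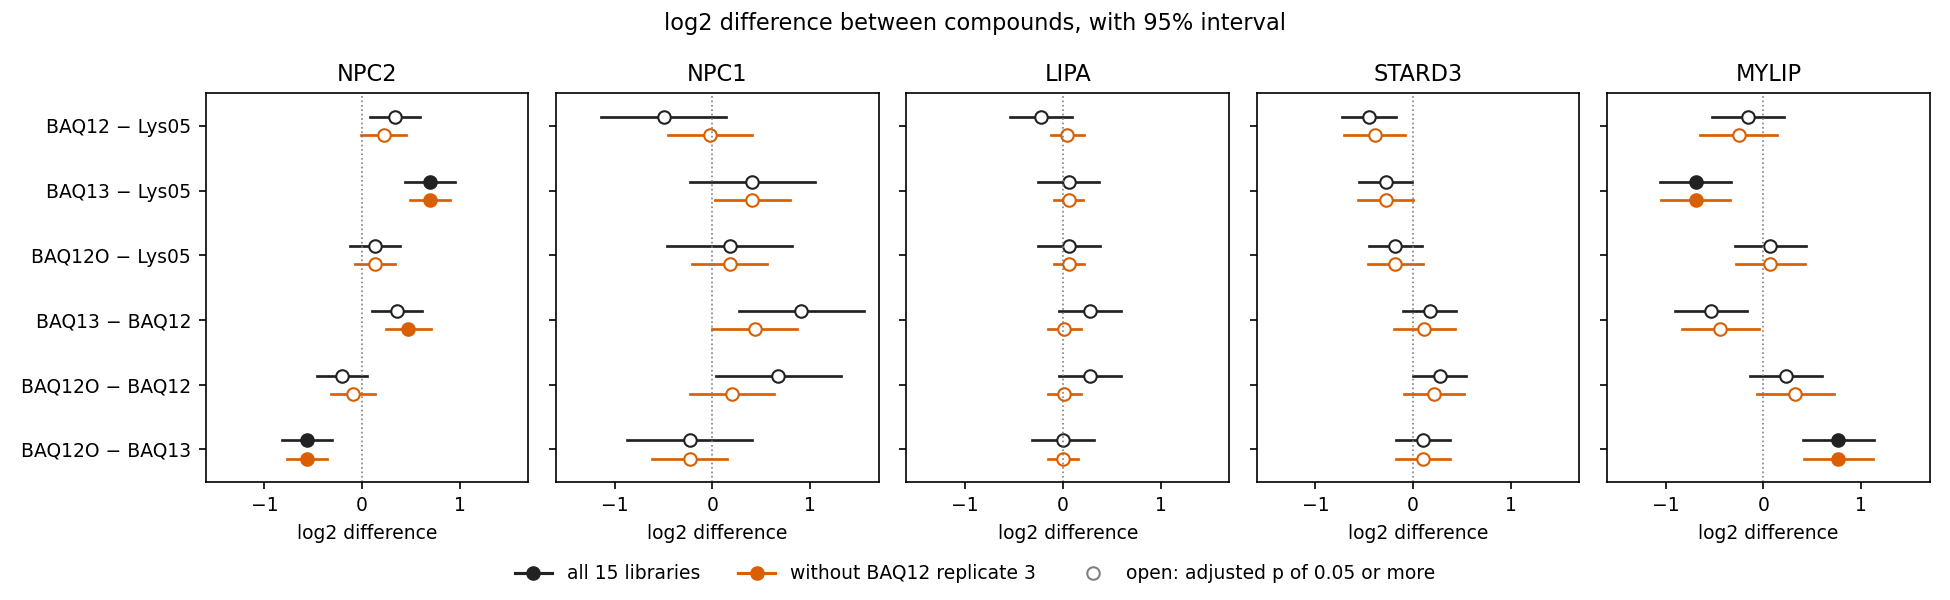
log2 difference between compounds (x axis, first minus second) with its 95% interval, for 5 genes and 6 pairs of compounds. Dark symbols use all 15 libraries, orange symbols leave out the third BAQ12 library, and filled symbols have an adjusted p under 0.05. The filled dark symbols are those of NPC2 and MYLIP for BAQ13 against Lys05 and for BAQ12O against BAQ13.

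The other genes of the pathway were taken from 5 lists, which were chosen with earlier results of these data known. Of the lipoprotein receptors, their chaperones and adaptors and the UBE2D enzymes that work with MYLIP, 8 of 12 genes were tested. By limma, edgeR and DESeq2, 0 were called against Ctrl with any of the 4 compounds, also by limma without the third BAQ12 library. Unadjusted limma p-values were under 0.05 for 1 gene with BAQ13, 1 with BAQ12O and 0 with the others. The list's median log2 difference with BAQ13 was -0.03, against -0.0042 over all genes. The largest differences with BAQ13 were both uncalled. UBE2D1, a ubiquitin-conjugating enzyme, read 33.1 ± 3.74 normalised counts in Ctrl and 24.8 ± 4.91 with BAQ13 (SD, n = 3), a log2 difference of -0.42 (adjusted p = 0.323, limma). LRP8, a receptor of the LDL receptor family, read 95.2 ± 6.03 and 120 ± 6.34, a log2 difference of 0.33 (adjusted p = 0.124).

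Of the other sterol transfer genes of endosomes and lysosomes, 13 of 17 were tested, and with BAQ13 2 were called higher and 0 lower, against 3.58% of all genes called higher and 2.19% lower. Without the third BAQ12 library 3 were called higher, against 7.26% of all genes. The list's median log2 difference was 0.24 with BAQ13. TMEM97, a sterol-responsive membrane protein known to bind NPC1, read 365 ± 46.7 normalised counts in Ctrl and 663 ± 71.5 with BAQ13, a log2 difference of 0.86 (adjusted p = 0.000198, limma). LAMP2, a lysosomal membrane glycoprotein, read 270 ± 6.76 and 396 ± 14.3, a log2 difference of 0.55 (adjusted p = 0.00027). With the other compounds limma, edgeR and DESeq2 called 0 genes of this list, and unadjusted limma p-values were under 0.05 for 3 with Lys05, 2 with BAQ12 and 2 with BAQ12O.

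The SREBP2 pathway and its targets in cholesterol synthesis rose in larger numbers. All 21 listed genes were tested, and 19 were called higher and 0 lower with BAQ13, against 3.58% of all genes called higher, with a median log2 difference of 1.68. Without the third BAQ12 library 20 were called higher with BAQ13, against 7.26% of all genes. With BAQ12, 11 were called higher, where 0.572% of all genes were, and with BAQ12O 7, where 0.934% were. The BAQ12 count was 14 without the third BAQ12 library, where 1.31% of all genes were called in either direction. The BAQ12O count was 11 without the third BAQ12 library, against 2.69% of all genes. With Lys05, limma, edgeR and DESeq2 called 0 (limma 1 without that library, against 0.238% of all genes), where 0.0762% of all genes were called higher and 2 of the 21 had an unadjusted p under 0.05. HMGCS1, the synthase that makes HMG-CoA, read 57.3 ± 2.37 normalised counts in Ctrl and 611 ± 58.5 with BAQ13, a log2 difference of 3.39 (adjusted p = 1.9e-08, limma). MSMO1, a sterol methyl oxidase, read 65.5 ± 12.5 in Ctrl, 177 ± 10.6 with BAQ12 and 470 ± 19.96 with BAQ13. MVD, the mevalonate diphosphate decarboxylase, read 22.5 ± 5.50, 61.4 ± 22.6 and 163 ± 16.3 in the same groups. NPC2 differed from Ctrl by 0.96 with BAQ13, below the median of this list, and STARD4, known as an SREBP2 target, had no reads in these libraries.

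**Figure D4:**
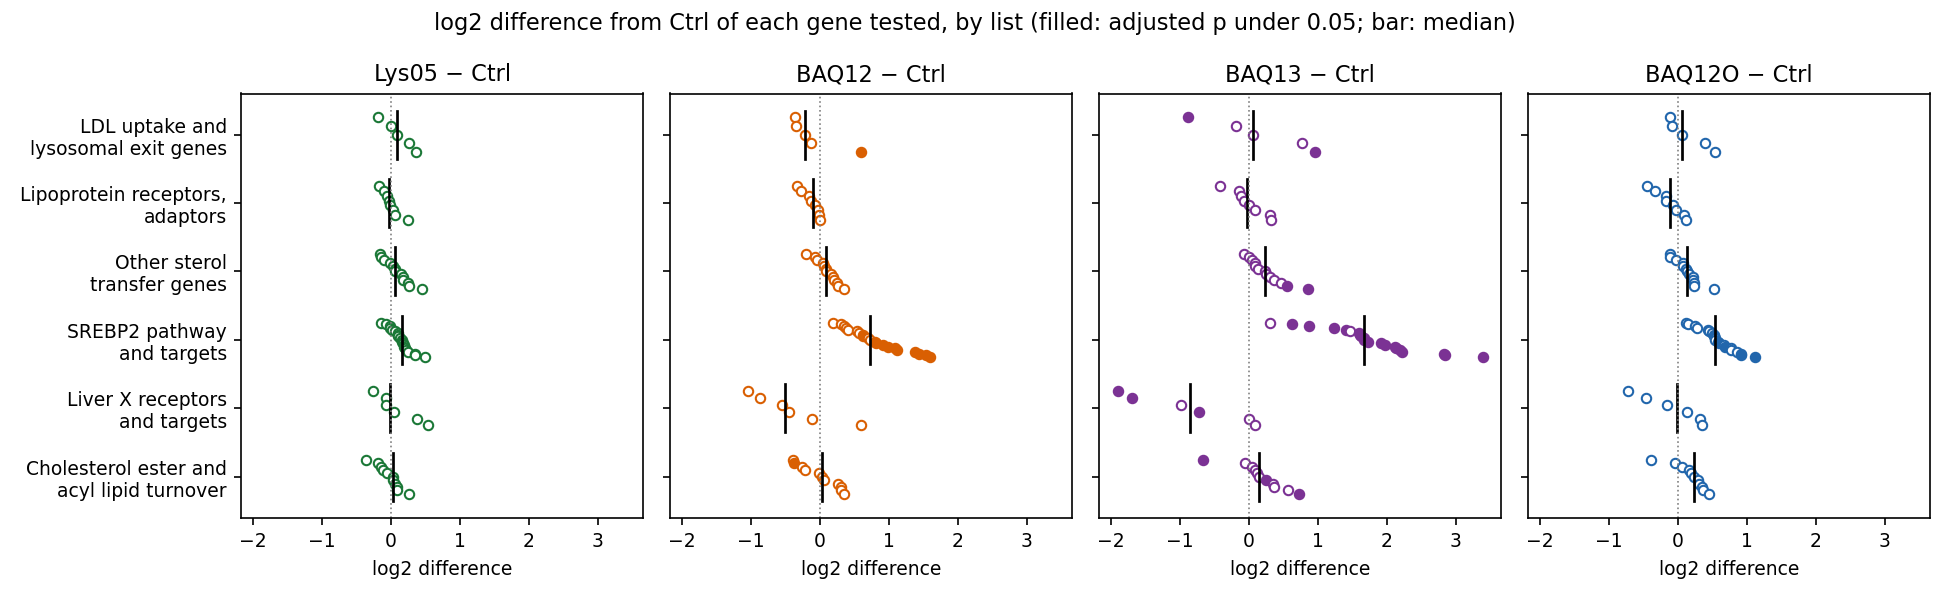
log2 difference from Ctrl (x axis, the same scale in all panels) of each gene tested, by compound and list. Each point is a gene, filled for an adjusted p under 0.05 (all 15 libraries), and the black bar is the median of the list. With BAQ13, 19 of 21 SREBP2 genes are filled and lie to the right of 0, and the filled liver X receptor targets lie to the left.

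Of the liver X receptors and their targets, 6 of 8 were tested besides MYLIP. With BAQ13, 0 were called higher and 3 lower, against 2.19% of all genes called lower (4 lower without the third BAQ12 library, against 6.47% of all genes), with a median log2 difference of -0.85. edgeR and DESeq2 called 4 genes of the list with BAQ13. With the other compounds all 3 tools called 0, and unadjusted limma p-values were under 0.05 for 0 genes with Lys05, 4 with BAQ12 and 1 with BAQ12O. ABCG1, a cholesterol exporter, read 24.1 ± 1.36 normalised counts in Ctrl and 6.04 ± 2.33 with BAQ13, a log2 difference of -1.90 (adjusted p = 0.00068, limma). ABCA1, which loads cholesterol onto apolipoproteins, read 9.64 ± 1.01 and 2.35 ± 0.871, the latter below the level of 3 reads, so that its fitted log2 difference of -1.69 (adjusted p = 0.0081) depends on the pseudocount. SREBF1, which encodes SREBP1, read 55.4 ± 7.86 and 33.0 ± 2.68, a log2 difference of -0.72 (adjusted p = 0.0194). The MYLIP difference of -0.88 lay close to the median of this list.

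Of the genes of cholesterol ester and acyl lipid turnover, 11 of 12 were tested besides LIPA. With BAQ13, 2 were called higher and 1 lower, against 3.58% and 2.19% of all genes, with a median log2 difference of 0.15. NCEH1, a neutral cholesteryl ester hydrolase, read 454 ± 37.5 normalised counts in Ctrl, 351 ± 8.21 with BAQ12 and 285 ± 10.1 with BAQ13. Its log2 difference was -0.37 with BAQ12 (adjusted p = 0.0395, limma) and -0.67 with BAQ13 (adjusted p = 4.8e-05), and it was the only gene of the list called with BAQ12, with 0.410% of all genes called lower there. ASAH1, the lysosomal acid ceramidase, read 31.5 ± 3.08 in Ctrl and 53.0 ± 3.37 with BAQ13, a log2 difference of 0.73 (adjusted p = 0.0364). PSAP, the precursor of the saposins that aid lysosomal lipid hydrolysis, read 836 ± 32.7 and 999 ± 53.2, a log2 difference of 0.26 (adjusted p = 0.0299). With Lys05 and BAQ12O limma, edgeR and DESeq2 called 0 genes of this list, of which 0 and 2 had an unadjusted limma p under 0.05.

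The tested genes whose log2 values followed each of the 5 most closely across the 15 libraries were listed, as a description, since the libraries fall into 5 groups. For NPC2 these were SPAG9 (Pearson r = 0.968), RRAGD (0.957) and FDPS (0.952), and without the third BAQ12 library the r values were 0.966, 0.954 and 0.947. For NPC1 they were MAFG (0.946), STK24 (0.923) and BBC3 (0.911), the last of which fell to 0.776 without that library. For MYLIP they were TMEM136 (0.890), IGF2BP3 (0.881) and FAM171A1 (0.875). For STARD3 they were HSPA5 (0.882), PRKAA1 (0.859) and SERINC5 (0.831). For LIPA, the r values of GUCD1 (0.964), FAM96A (0.956) and MAML1 (0.956) fell to 0.741, 0.761 and 0.725 without the third BAQ12 library, in which all of them and LIPA were low.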

How the data were processed

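RNA was sequenced from 15 libraries of MIA PaCa-2 cells, in 5 groups of 3 taken from the sample labels. The sources disagree on the kit: a 3′-end mRNA kit stands in the labels, and a directional paired-end kit in the study's methods. The submitters' processing notes name STAR, HTSeq, DESeq2 and GRCh38, without versions. Whether counting used strand is not given in the sources used here. The authors deposited 1 signal per gene and library, a read count divided by a size factor. Divided by its smallest step, 100% of each library's values above 0 came out whole (tolerance 0.01), which recovered the reads, 1586566 to 2500551 per library on genes. They limit precision for NPC1, MYLIP and STARD3, with at most 80 reads each per library. The 92 spike-in identifiers held 0 reads.

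The 10495 genes kept by filterByExpr on the recovered reads (minimum count 10, minimum total 15) were tested with limma on log2(value + 1), with a variance trend, over all 15 libraries in 10 comparisons. A fold change on this scale understates that of weakly expressed genes. Adjustment was by Benjamini-Hochberg over all genes tested, and a gene was called at an adjusted p under 0.05. A 95% interval covers the spread between libraries. Alternatives were TMM factors, edgeR and DESeq2 on the recovered reads, pseudocounts of 0.1 and 5, no filter, at least 10 reads in every library, only the groups compared, the replicate number as a block, library weights, and leaving out each library. The tests were also run on simulated counts in which no library stood apart, so that run does not bear on the effect of the third BAQ12 library. No pair of libraries of the same group was identical. Their chi-square per gene, about 1 for counting error alone, ran from 1.05 to 1.32 within Ctrl and from 1.11 to 1.29 within Lys05. The spread in these groups was thus little above counting error. The value reached 12.6 with the third BAQ12 library and 5.99 with the first BAQ13 library.

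The 6 genes and all lists were chosen with earlier results of these data known. Besides the 6, the text names for each the 3 genes with the highest Pearson r across libraries, and from each list up to 3 called genes with the largest log2 difference with BAQ13 (or 2 uncalled ones). Of 60107 identifiers, 56531 were found in GENCODE 29, which gave gene positions, and promoters came from RefSeq (GRCh38.p14). The fits used limma 3.58.1, DESeq2 1.42.0 and edgeR 4.0.16 in R 4.3.3, and tables and figures used pandas 2.3.3, matplotlib 3.10.9 and numpy 2.4.6 in Python 3.11.15.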

Additional observations from a re-analysis of the deposited data

How the results depend on the processing

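Of 1250 log2 differences of the 5 genes under 25 alternatives, 1188 kept their direction and their side of the threshold, 34 lost a call, 11 gained one and 17, all uncalled, changed sign. NPC2 and MYLIP with BAQ13 against Ctrl, and NPC2 with BAQ13 against Lys05, kept their calls under all of them. The number of the 5 genes called moved as follows. Against Ctrl, BAQ12 went from 1 to 0 with only the groups compared and to 0 to 1 when libraries were left out. BAQ13 went from 2 to 3 with only the groups compared, library weights or the third BAQ12 library left out, NPC1 being added each time. BAQ12O went from 0 to 1 with only the groups compared or library weights, and to 0 to 1 when libraries were left out. BAQ13 against Lys05 went from 2 to 3 with library weights (NPC1 added, adjusted p = 0.0358), to 1 with DESeq2 or no filter and to 1 to 2 when libraries were left out. BAQ13 against BAQ12 went from 0 to 3 with library weights and to 0 to 1 when libraries were left out. BAQ12O against BAQ13 went from 2 to 1 with DESeq2, no filter or only the groups compared, and to 0 to 2 when libraries were left out. The cause was not tested. The sample labels give replicate numbers but do not say whether these pair libraries across groups. Deviations of same-numbered libraries correlated between -0.492 and 0.200 (over 0.1 in 4 of 30 pairs). For BAQ12 and Lys05, 5 of 6 libraries correlated best with their own number, for BAQ13 and Ctrl 4 of 6, and in the other comparisons at most 2 of 6. With 3 libraries per group, of which the third BAQ12 library stood apart, this check cannot settle whether the libraries are paired. With the replicate number as a block, BAQ13 against Lys05 gave 1 call (MYLIP adjusted p = 0.0659, limma) and BAQ12O against BAQ13 gave 0 (NPC2 0.0555, MYLIP 0.0642). It changed no other call. Changes of sign were as follows. For Lys05 against Ctrl, LIPA was -0.0028 without the first Lys05 library and ran from -0.032 to 0.034 when libraries were left out. For BAQ12 against Ctrl, NPC1 was 0.064 with edgeR, 0.040 with DESeq2 and 0.34 with library weights, and ran from -0.40 to 0.34 when libraries were left out. LIPA was 0.0090 with weights and ran from -0.36 to 0.049. For BAQ12 against Lys05, LIPA was 0.0050 with weights and ran from -0.37 to 0.045, and MYLIP ran from -0.25 to 0.0036. For BAQ12O against Lys05, MYLIP ran from -0.013 to 0.17. For BAQ12O against BAQ13, LIPA was -0.036 with weights and ran from -0.057 to 0.055. Over all genes, the number called moved most with library weights, in which the third BAQ12 library weighed 0.125, with only the groups compared and when libraries were left out. Against Ctrl, the count was 606 for BAQ13 (2333 with weights, 947 with only the groups compared, 320 to 1441 with a library left out), 103 for BAQ12 (626, 31 and 56 to 137), 155 for BAQ12O (700, 871 and 75 to 524) and 25 for Lys05 (73, 115 and 19 to 51). Between compounds, and with the same alternatives in the same order, it was 279 for BAQ13 and Lys05 (1468, 389 and 154 to 814), 59 for BAQ13 and BAQ12 (1801, 9 and 32 to 332), 146 for BAQ12O and BAQ13 (908, 157 and 72 to 387), 17 for BAQ12 and Lys05 (176, 0 and 8 to 26), 26 for BAQ12O and Lys05 (118, 223 and 20 to 83) and 24 for BAQ12O and BAQ12 (467, 8 and 14 to 54). In each of the 10 comparisons the highest of the counts with a library left out was that without the third BAQ12 library. BAQ12 and Lys05 gave 11 calls with no filter and 26 with DESeq2. The depth limits NPC1, MYLIP and STARD3 most, and STARD4 could not be fitted.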
